A study of Mus musculus with 6 samples.

Results

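The genes described here are those that control the exit of germinal centre B cells from G1: the D-type cyclins Ccnd2 and Ccnd3, the kinases Cdk4 and Cdk6, the CDK inhibitors Cdkn1a, Cdkn1b and Cdkn2c, and the retinoblastoma gene Rb1. They were taken by symbol, 8 genes of the 14548 symbols listed in all 3 deposited tables, and all 8 passed the filter on low counts in every tested comparison. Single-cell RNA sequencing with 5'-end droplet chemistry was run on germinal centre B cells from the spleens of mice immunised in alum with an antigen carrying the hapten NP. The Day14 group (2 libraries) held B220+ CD95hi GL7hi IgD- cells of wild-type mice at 14 days. The Day7 group (2 libraries) held B220+ CD38- GL7hi cells of wild-type mice at 7 days, so the sort gates of the time points differ. The KO chimaera (1 library) came from irradiated Ccl19Cre/+ Il4raf/f hosts rebuilt with wild-type marrow, and the control chimaera (1 library) from irradiated Il4ra+/+ hosts rebuilt in the same way. Both chimaeras were sorted at 14 days with the Day14 gate. In the KO hosts Cre is driven by Ccl19, a gene of lymphoid stromal cells, so the sorted B cells of both chimaeras are of wild-type donor genotype.

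D-type cyclins bind CDK4 and CDK6, and the active complexes phosphorylate the retinoblastoma protein, which then releases E2F factors that switch on genes of DNA synthesis. The INK4 protein encoded by Cdkn2c binds CDK4 and CDK6 themselves, whereas the proteins of Cdkn1a and Cdkn1b bind cyclin-CDK complexes. In a germinal centre, B cells divide in the dark zone (DZ) and are selected by antigen and T cell help in the light zone (LZ). In mouse germinal centres cyclin D3 is required for the expansion of dark zone cells, and cyclin D2 is a known target of MYC and of repression by BCL6.

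The libraries held 9109 and 10648 cells with 35637133 and 39839045 UMIs (unique transcript molecules) at Day14, 1012 and 2530 cells with 20339933 and 54010682 UMIs at Day7, 7314 cells with 59690886 UMIs in the KO and 8038 cells with 62202828 UMIs in the control. Levels are given as CPM, the counts of a gene per 1000000 counts of all genes in the same library, zone, phase or cluster. Pairs of libraries shared 1 to 135 cell barcodes, 0.0988% to 1.54% of the smaller library. All 6 B cell markers were present in every library, summing to 4696 to 6068 CPM, stromal markers summed to at most 1.67 CPM, and T cell markers to 56.0 to 125 CPM, nearly all of it Lck. Erythroid markers summed to 59.5 to 639 CPM, highest in Day7 replicate 1, and myeloid markers to 14.9 to 33.3 CPM. The labels do not say whether replicate libraries came from separate animals, so p-values measure the spread between these libraries only. Cluster numbers, zones and phases are the authors' calls on the same transcriptomes by steps not given in the sources used here.

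Cdk4 and Cdk6 are shown first by the sequence upstream of their RefSeq starts (GRCm38.p6), a choice made after the values were seen. Capitals mark the E-box CACGTG, the sequence that MYC and related factors can bind, and the GC box GGGCGG, read on both strands.
Cdk4, chr10:127063285-127063534, plus strand: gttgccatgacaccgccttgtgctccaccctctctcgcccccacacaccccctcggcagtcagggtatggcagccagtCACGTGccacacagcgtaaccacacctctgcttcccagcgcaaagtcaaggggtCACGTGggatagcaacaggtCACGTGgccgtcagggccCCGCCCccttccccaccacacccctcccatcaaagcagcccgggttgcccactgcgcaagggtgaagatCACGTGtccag
Cdk6, chr5:3343643-3343892, plus strand: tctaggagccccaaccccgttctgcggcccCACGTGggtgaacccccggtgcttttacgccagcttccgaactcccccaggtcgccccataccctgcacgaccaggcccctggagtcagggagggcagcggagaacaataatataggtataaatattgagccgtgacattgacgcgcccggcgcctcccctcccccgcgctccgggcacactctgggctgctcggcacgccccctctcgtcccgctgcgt
The Cdk4 window holds 4 E-boxes, at 172, 118, 98 and 11 bases before the start, and the Cdk6 window holds 1. Of 32851 RefSeq promoter windows of this length, 6.02% hold at least 1 E-box and 7 hold at least 4 (0.0213%), while 32.7% hold a GC box. Other motifs were searched as well and are not marked. A match describes these letters and shows no binding, and a role of MYC was not tested. The other windows found were those of Ccnd3, Cdkn1a, Cdkn1b and Cdkn2c, and none was found for Ccnd2 or Rb1.

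**Figure D1:**
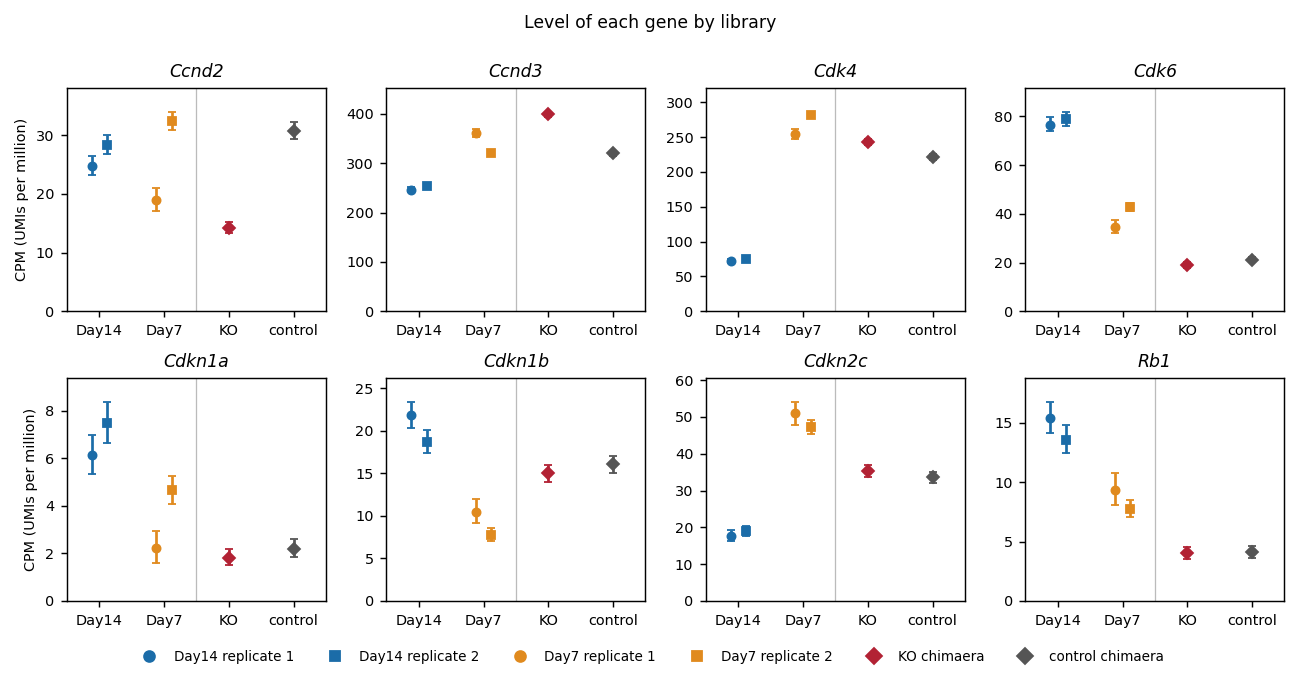
Level of each gene in CPM (vertical axes, starting at 0) in the 2 Day14 libraries, the 2 Day7 libraries and the KO and control chimaera libraries, with 95% exact counting intervals. Cdk4 stood at 72.7 and 75.0 CPM at Day14, against 254 and 282 CPM at Day7, and Ccnd2 at 14.3 CPM in the KO, against 30.8 CPM in the control.

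Between time points, Cdk4, Ccnd3 and Cdkn2c were lower at Day14 and Cdk6, Cdkn1b and Rb1 were higher. By the quasi-likelihood test of edgeR on summed counts, 6 of the 8 genes passed an adjusted p of 0.05, where 67.9% of 11995 genes passed, so the share is near that of all genes. Of the 8, 3 rose, where 34.9% of genes did, and 3 fell, where 33.0% did. Of the cyclins, Ccnd3 had 246 and 253 CPM at Day14, against 362 and 320 CPM at Day7. Ccnd2 had 24.8 and 28.4 CPM at Day14, against 19.0 and 32.4 CPM at Day7. The groups did not overlap for Ccnd3 (log2 -0.63, SE 0.07, edgeR adjusted p = 0.000412), whereas the Day14 values of Ccnd2 lay inside the Day7 range (log2 -0.16, SE 0.24, edgeR adjusted p = 0.58). Non-overlap of groups is a description here and below, and its share over all genes was not counted. Without Day7 replicate 1, Ccnd2 stood at log2 -0.53 (edgeR adjusted p = 0.0011), and without Day7 replicate 2 at 0.33 (edgeR adjusted p = 0.029), so its sign at this comparison rests on 1 library.

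The kinases went in opposite directions. Cdk4 had 72.7 and 75.0 CPM at Day14, against 254 and 282 CPM at Day7. Cdk6 had 76.6 and 79.0 CPM at Day14, against 34.6 and 42.8 CPM at Day7. Neither overlapped between time points, with log2 changes of -2.04 for Cdk4 (SE 0.08, edgeR adjusted p = 2.29e-05) and 0.82 for Cdk6 (SE 0.12, edgeR adjusted p = 0.00116). Both chimaera libraries, also of day 14 and of the Day14 gate, had 243 CPM of Cdk4 in the KO and 221 CPM in the control, near the Day7 level, and 19.0 and 21.2 CPM of Cdk6, below both time points. Time point, sort gate and deposited table, with its own gene list and cell depth, cannot be told apart in this comparison.

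Among the inhibitors, Cdkn2c fell and Cdkn1b rose. Cdkn2c had 17.7 and 19.1 CPM at Day14, against 51.0 and 47.2 CPM at Day7, with 35.3 CPM in the KO and 33.6 CPM in the control chimaera. Cdkn1b had 21.9 and 18.7 CPM at Day14, against 10.5 and 7.78 CPM at Day7. The groups did not overlap for either gene, and the log2 changes were -1.59 for Cdkn2c (SE 0.07, edgeR adjusted p = 2.62e-05) and 1.01 for Cdkn1b (SE 0.15, edgeR adjusted p = 0.00162). Rb1 had 15.4 and 13.6 CPM at Day14, against 9.34 and 7.76 CPM at Day7 (log2 0.60, SE 0.13, edgeR adjusted p = 0.00639), and stood at 4.04 CPM in the KO and 4.10 CPM in the control chimaera. Without Day14 replicate 1 the edgeR adjusted p of Rb1 was 0.0543. Cdkn1a, the rarest of the 8 at 2.21 to 7.48 CPM, did not pass (log2 0.73, SE 0.33, edgeR adjusted p = 0.0911), but it passed in 6 alternatives: without Day7 replicate 2 (log2 1.46, edgeR adjusted p = 0.00131), with the replicate block, with library totals, without the filter, and in LZ or G1 cells only (log2 0.74 to 0.93).

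Other genes of the pathway changed in both directions at Day14. Of 10 tested G1 to S cyclins, kinases and activators, 6 fell, led by the CDK adaptor Cks1b (log2 -2.13), with the S phase cyclin Ccna2 at -1.33, and 2 rose, led by the phosphatase gene Cdc25a (0.71). Of 12 pocket proteins, E2F and DP factors, 7 rose, led by E2f3 (1.86), and 2 fell, Tfdp1 (-1.38) and E2f4 (-0.62). Of 4 other CDK inhibitors 2 fell, Cdkn2a (-1.31) and Cdkn2d (-0.88). Of 8 tested p53 genes 4 fell, led by Trp53 itself (-1.17) and with Bax at -1.03, and Aen rose (0.24). Of 10 upstream regulators 6 rose, led by Foxp1 (0.76), and 3 fell, led by Myc (-1.38) and including Tcf3 (-0.47). Over all genes tested 34.9% rose and 33.0% fell, with a median log2 change of 0.04.

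Between zones, Ccnd2 and Ccnd3 moved in opposite directions. Ccnd2 had 57.2 and 68.6 CPM in LZ cells of the Day14 libraries, 41.8 and 73.6 CPM at Day7, 31.4 CPM in the KO and 64.3 CPM in the control. In DZ cells it had 8.97 and 9.94 CPM at Day14, 6.02 and 9.81 CPM at Day7, 6.14 CPM in the KO and 11.4 CPM in the control. Every LZ value lay above every DZ value, and the difference was 6.17-fold (log2 2.63, SE 0.06, edgeR adjusted p = 4.53e-11). The genes behind the zone calls are not given, so Ccnd2 or other members may have entered the call itself. Ccnd3 had a median of 256 CPM in LZ cells (228 to 333) and 357 CPM in DZ cells (255 to 429). It was lower in LZ in 6 of 6 libraries (log2 -0.36, SE 0.04, edgeR adjusted p = 1.81e-05), although the ranges over libraries overlapped. Ccnd2 made up 8.63% to 22.4% of the Ccnd2 and Ccnd3 UMIs in LZ cells and 1.41% to 3.68% in DZ cells over the 6 libraries, a measure chosen after the values were seen.

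Of the other members, Cdkn2c fell and Cdkn1b rose in LZ cells. Cdkn2c had a median of 20.6 CPM in LZ cells (10.3 to 27.6) and 43.1 CPM in DZ cells (21.4 to 64.3), and was lower in LZ in 6 of 6 libraries (log2 -1.11, SE 0.05, edgeR adjusted p = 2.8e-09). Cdkn1b had a median of 20.1 CPM in LZ cells (8.46 to 26.4) and 13.2 CPM in DZ cells (7.40 to 19.5), and was higher in LZ in 6 of 6 (log2 0.39, SE 0.08, edgeR adjusted p = 0.00162). In the Day7 table alone Cdkn1b differed by only 0.06 (edgeR adjusted p = 0.782). Cdkn1a passed at log2 -0.31 (SE 0.10, edgeR adjusted p = 0.0203) but lost the call in 8 alternatives: without Day7 replicate 2 (edgeR adjusted p = 0.0645) or Day14 replicate 1 (edgeR adjusted p = 0.0589), with DESeq2, thinned cells or library totals, and in each of the 3 tables alone. Cdk4 (log2 0.00, 95% interval -0.10 to 0.10), Cdk6 (-0.09, -0.20 to 0.03) and Rb1 (0.15, 0.01 to 0.28) did not pass. In all, 5 of 8 passed, where 57.6% of 11818 genes did, with 2 higher (30.1% of genes) and 3 lower (27.5% of genes). Median UMIs per cell were 2547 to 15336 in LZ cells and 3733 to 20954 in DZ cells, lower in LZ in each library.

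Within cells called G1 the fitted cyclin contrast was larger, a change that was not tested. In Day14 replicate 2, however, the Ccnd2 log2 ratio was smaller in G1 cells (2.56) than in all cells (2.79). DZ cells called G1 held only 7 to 45 Ccnd2 UMIs per library. Among G1 cells Ccnd2 had a median of 48.4 CPM in LZ (30.5 to 67.2) and 4.35 CPM in DZ (3.81 to 10.4), with no overlap, an 8.19-fold difference (log2 3.03, SE 0.11, edgeR adjusted p = 2.45e-12). Ccnd3 was lower in LZ G1 cells in 6 of 6 libraries (log2 -0.51, SE 0.05, edgeR adjusted p = 1.85e-07). Cdkn1b was higher (log2 0.52, SE 0.12, edgeR adjusted p = 0.00189) and rose in 5 of 6 libraries, but it stood at -0.0049 in the Day7 table alone. Cdkn2c, in contrast, stood at 0.09 (95% interval -0.12 to 0.29) within G1. Cdk4 (log2 0.17, edgeR adjusted p = 0.0118) and Cdk6 (0.26, edgeR adjusted p = 0.0201) passed in G1 cells. Cdk4 lost the call in 2 alternatives. Cdk6 lost it without Day14 replicate 1 (edgeR adjusted p = 0.139) or Day14 replicate 2 (edgeR adjusted p = 0.0631), and with DESeq2 or thinned cells. Cdk6 was lower in LZ G1 cells of both chimaeras (-0.28 in the KO and -0.22 in the control), at -0.12 in that table alone. Here 5 of 8 passed, where 40.0% of 10351 genes did, with 4 higher (20.5% of genes) and 1 lower (19.4% of genes).

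**Figure D2:**
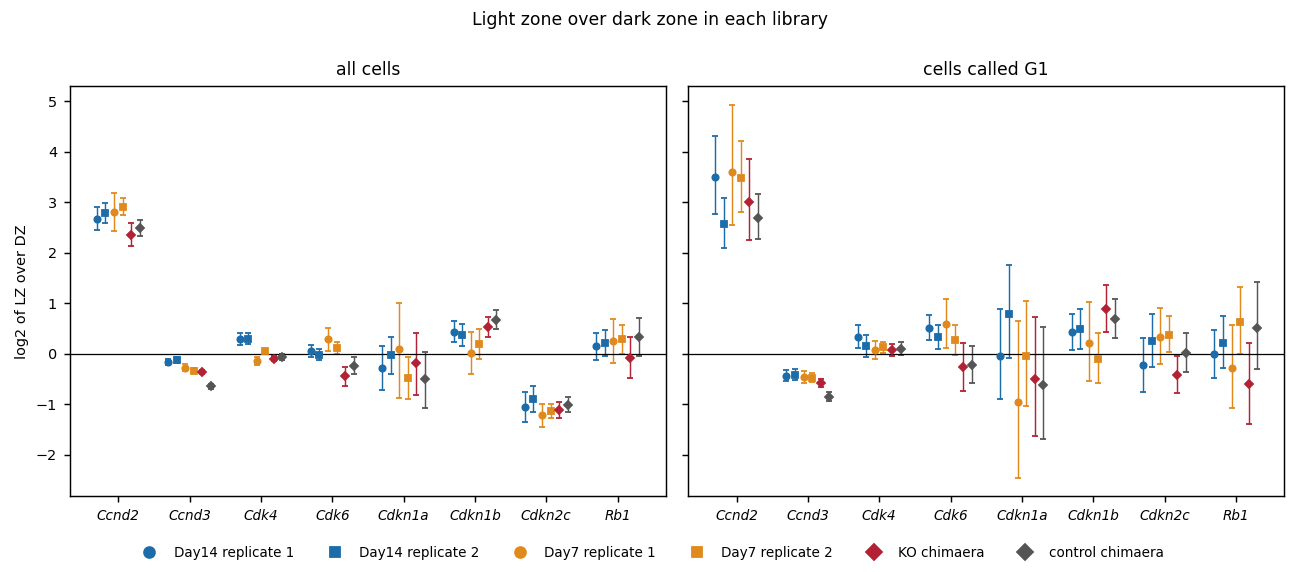
Log2 ratio of LZ over DZ level (vertical axis) for each gene in each of the 6 libraries, for all cells (left) and cells called G1 (right), with 95% counting intervals. Ccnd2 lies between 2.35 and 2.91 in all cells, Ccnd3 between -0.65 and -0.13, and Cdkn2c moves from -0.90 or lower in all cells to both sides of 0 in G1 cells.

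The other cyclins, kinases and E2F factors were mostly lower in LZ. Of 10 G1 to S cyclins, kinases and activators 8 fell, led by Ccna2 (log2 -2.51), and Cdk7, a CDK-activating kinase, rose (0.17). Of 12 pocket proteins, E2F and DP factors 10 fell, led by the repressor gene E2f7 (-1.59) and with E2f4 at -0.13. Of 4 other CDK inhibitors 3 fell, led by Cdkn2d (-1.34). The p53 genes rose in 7 of 9 tested, led by Phlda3 (1.21, at a mean of only 0.234 CPM) and including Bax (0.23), and Mdm2 fell (-0.28), but within G1 only 1 of 8 was higher and 1 lower. Among upstream regulators 5 of 10 rose, led by Klf2 (1.62), and 4 fell, led by Tcf3 (-0.49). Within G1 the regulator that rose most was Myc (1.78) with Tcf3 lowest (-0.41), and Ccna2 (-1.31), E2f8 (-0.85), Cdkn1c (-0.95, 1.44 CPM), Cdkn2d (-0.28) and Mdm2 (-0.22) fell while Trp53 rose (0.16). E2f4 (-0.10) and Bax (0.12) did not pass within G1. Over all genes tested 30.1% were higher and 27.5% lower in LZ, and within G1 20.5% were higher and 19.4% lower.

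Across called phases, all 8 genes differed between S and G1, where 63.3% of 11429 genes did, with 6 higher (29.1% of genes) and 2 lower (34.2% of genes). Cdk4 had a median of 317 CPM in S (96.3 to 372) and 174 CPM in G1 (69.1 to 229), and was higher in S in 6 of 6 libraries (log2 0.77, SE 0.06, edgeR adjusted p = 2.71e-09). Cdkn2c (log2 0.86, edgeR adjusted p = 1.8e-09), Cdk6 (0.60, edgeR adjusted p = 9.8e-08), Ccnd3 (0.39, edgeR adjusted p = 2.6e-06) and Rb1 (0.50, edgeR adjusted p = 0.000961) were also higher in S in 6 of 6 libraries, and Cdkn1a (0.68, edgeR adjusted p = 0.000319) in 5 of 6. Cdkn1b, the inhibitor known for holding cells in quiescence, had a median of 10.7 CPM in S (5.59 to 16.4) and 20.3 CPM in G1 (10.7 to 28.6), and was lower in 6 of 6 libraries (log2 -0.76, SE 0.08, edgeR adjusted p = 5.73e-08). Ccnd2 was lower in 5 of 6 (log2 -0.54, SE 0.16, edgeR adjusted p = 0.00565). It lost the call in 2 alternatives, among them without the control chimaera (-0.37, edgeR adjusted p = 0.0621). The test did not hold the zone fixed, and within each zone the median of Ccnd2 was higher in S. It was 69.5 CPM in S and 48.4 CPM in G1 for LZ cells, and 8.95 CPM and 4.35 CPM for DZ cells.

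From G1 to G2M the members split, with 6 of 8 passing where 60.2% of 11429 genes did, 3 of them higher (28.6% of genes) and 3 lower (31.6% of genes). Cdkn2c had a median of 52.3 CPM in G2M (25.7 to 77.4) and 18.1 CPM in G1 (11.0 to 24.5), with no overlap (log2 1.50, SE 0.06, edgeR adjusted p = 2.5e-13). Ccnd2 had a median of 12.7 CPM in G2M (5.69 to 19.8) and 36.6 CPM in G1 (23.1 to 51.2), with no overlap in the other direction (log2 -1.51, SE 0.17, edgeR adjusted p = 3.13e-07). Cdk6 rose (0.57, edgeR adjusted p = 1.81e-07, higher in 6 of 6 libraries). Cdkn1a rose (0.57, edgeR adjusted p = 0.00154), but it was higher in 4 of 6 libraries and lost the call in 3 alternatives, with thinned cells and in the Day7 and chimaera tables alone. Cdkn1b fell (-0.34, edgeR adjusted p = 0.000348) and Rb1 fell (-0.42, edgeR adjusted p = 0.00706, lower in 5 of 6 libraries), and each lost the call in 2 alternatives, thinned cells and 1 table alone (Day7 for Cdkn1b, the chimaeras for Rb1). Ccnd3 (0.04, 95% interval -0.06 to 0.14) and Cdk4 (0.12, 0.00 to 0.24) did not pass, but Cdk4 passed without Day14 replicate 1 (0.18, edgeR adjusted p = 0.0138) or Day14 replicate 2 (0.18, edgeR adjusted p = 0.0146).

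Ccnd2 was also read within each zone and phase. In LZ cells it had a median of 48.4 CPM in G1 (30.5 to 67.2), 69.5 CPM in S (27.7 to 99.7) and 71.4 CPM in G2M (30.3 to 119, in the 4 libraries with at least 50 such cells). In DZ cells it had 4.35 CPM in G1 (3.81 to 10.4), 8.95 CPM in S (2.75 to 11.0) and 10.1 CPM in G2M (5.33 to 12.4). The S median of each zone thus lay above that of G1, and so did the G2M median of DZ cells. The tests over all cells gave the reverse direction. In the libraries read in both phases, LZ cells had more Ccnd2 in G2M than in G1 at Day14 (79.95 and 119 CPM, with 47.7 and 57.4 CPM in G1) and slightly less in the KO (30.33 CPM, with 30.45 in G1) and the control (62.9 CPM, with 67.2 in G1). Every LZ value lay above every DZ value of any phase. Cdkn2c climbed in DZ cells, with medians of 18.6 CPM in G1, 35.3 in S and 53.2 in G2M, while LZ cells had 17.5 CPM in G1 and 27.0 CPM in S. In G2M cells of LZ, not read at Day7, Cdkn2c lay below G1 at Day14 (6.15 and 5.40 CPM, with 10.4 and 13.3 CPM in G1) and above it in the KO (23.2 CPM, with 17.3 in G1) and the control (22.7 CPM, with 17.7 in G1). LZ cells called G2M numbered 86 and 102 at Day14, 58 in the KO and 61 in the control. At such numbers a low CPM rests on few UMIs, so the order of G2M and G1 for Cdkn2c in LZ cells is uncertain. These splits were chosen after the values were seen and carry no test.

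**Figure D3:**
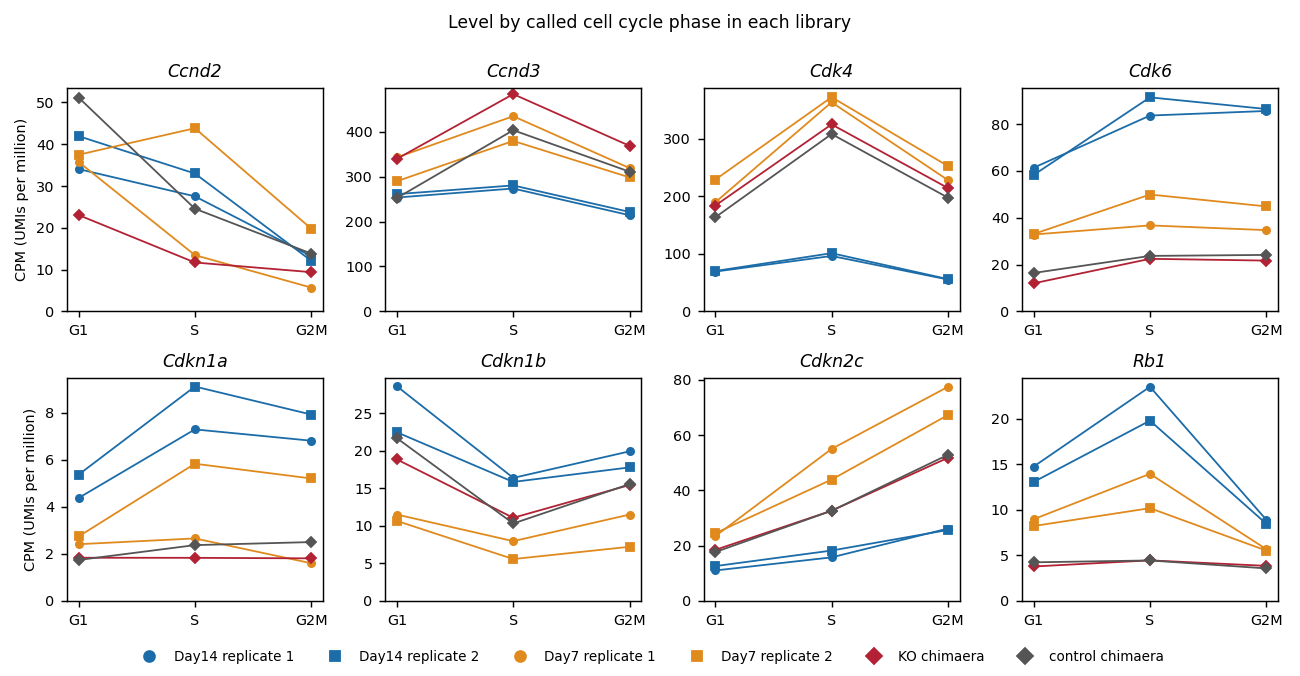
Level of each gene in CPM (vertical axes, starting at 0) in cells called G1, S and G2M, with 1 line per library. Cdk4 peaks in S in all 6 libraries, Cdkn2c climbs to medians of 32.6 CPM in S and 52.3 CPM in G2M, and Ccnd2 is lowest in G2M.

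Of the cyclins, kinases and activators of the wider pathway 7 were higher in both S and G2M than in G1, and of the pocket proteins, E2F and DP factors 9. The share of all genes higher in both phases was not counted. Over all genes tested 29.1% rose and 34.2% fell in S, and 28.6% rose and 31.6% fell in G2M. The genes behind the phase calls are not given, so some genes of these lists may have entered the call itself. Of 10 G1 to S cyclins, kinases and activators 8 rose in S, led by Ccne2 (log2 2.61) and with Ccna2 at 2.09, and Cdk7 fell (-0.26). In G2M 7 rose, led by Ccna2 (3.46). Of 12 pocket proteins, E2F and DP factors 10 rose in S, led by E2f8 (3.14) and including E2f4 (0.24), while 2 fell, led by E2f5 (-0.25), and 10 rose in G2M with E2f8 at 2.57 and E2f4 at 0.24. Of 3 tested inhibitors Cdkn2a rose in S (0.73), Cdkn2d did not pass there (0.06), and all 3 rose in G2M, led by Cdkn2d (1.51). Of 8 p53 genes 3 fell in S, led by Trp53inp1 (-0.77), Trp53 rose (0.17), and Bax did not pass (-0.01); in G2M 6 fell, led by Sesn2 (-0.76) and with Bax at -0.22, and Mdm2 rose (0.28). Of 10 upstream regulators 6 fell in S and 6 in G2M, 5 of them in both, led by Klf2, a quiescence factor of lymphocytes (-2.20 in S and -1.52 in G2M), and Tcf3 rose (0.19 in S and 0.42 in G2M).

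The zone difference was compared between time points for each member. Of the 8, only Cdk4 passed, where 2.38% of 11492 genes did, 1.22% higher and 1.16% lower. Cdk4 had 82.6 and 86.1 CPM in LZ and 67.9 and 70.1 CPM in DZ at Day14, and 237 and 287 CPM in LZ and 264 and 279 CPM in DZ at Day7. Its LZ over DZ log2 was 0.28 and 0.30 at Day14, against -0.15 and 0.04 at Day7, a difference of 0.30 (SE 0.08, edgeR adjusted p = 0.0488). The call was lost without Day14 replicate 1 (edgeR adjusted p = 0.671) or Day14 replicate 2 (edgeR adjusted p = 0.638), and without the plasma-like clusters (edgeR adjusted p = 0.134), while the value stood at 0.47 without Day7 replicate 2. For Ccnd2 the difference was -0.19 (95% interval -0.42 to 0.05, edgeR adjusted p = 0.56). Ccnd3 passed only without Day7 replicate 1 (0.20, edgeR adjusted p = 0.000421). Of the pathway lists Klf2 (0.86), Foxp1 (0.28) and Trp53inp1 (-0.54) passed, and Ccna2 (-0.03), Cdkn2d (0.24), E2f4 (0.10), Bax (0.17) and Tcf3 (-0.004) did not.

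Levels by cluster are given without a test, since clusters were drawn on the same cells. Clusters carry a name ending in "-like" where marker genes supported one, and the tables were clustered separately. Ccnd2 was highest in a plasma-like cluster in each table, led by genes such as Prg2, Fkbp11 and Sdc1. In the plasma-like clusters it had 144 and 233 CPM at Day14 (cluster 9), 122 CPM at Day7 (cluster 5, replicate 2 only), 150 CPM in the KO and 131 CPM in the control (cluster 7). In the MYC-high selected-like clusters it had 157 and 187 CPM at Day14 (cluster 5), 89.4 and 96.3 CPM at Day7 (cluster 2), and 42.6 CPM in the KO and 76.2 CPM in the control (cluster 6). Ccnd2 was itself the gene of largest fold in the MYC-high selected-like clusters of Day14 and Day7. In dark zone or cycling-like clusters its table means were 3.52 to 9.07 CPM, and S phase-like clusters had 4.48 CPM in the chimaeras and 5.19 CPM at Day14. Day14 cluster 8, also plasma-like but with 198 cells and a median of 2245 UMIs, had 12.1 to 40.02 CPM, and 186 and 234 CPM of Ccnd3.

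Ccnd3 was lowest in those same plasma-like clusters, with 48.8 and 51.7 CPM at Day14, 79.2 CPM at Day7, 75.2 CPM in the KO and 64.2 CPM in the control, and next lowest in the memory precursor-like clusters of Day14 (160 CPM) and the chimaeras (208 CPM). The highest mean was in the S phase-like cluster at Day14 (305 CPM), and in unnamed clusters at Day7 (cluster 3, 423 CPM, led by haemoglobin transcripts) and in the chimaeras (cluster 5, 487 CPM). In Day7 cluster 3 all 8 measured memory precursor markers were raised (median log2 2.15). The low Ccnd3 of the named memory precursor-like clusters was thus not seen in that Day7 cluster. Ccnd2 thus made up 60.7% to 81.8% of Ccnd2 and Ccnd3 UMIs in these plasma-like clusters (17.7% and 4.92% in Day14 cluster 8), 44.9% and 48.7% in the MYC-high selected-like cluster of Day14, 23.8% and 24.6% in that of Day7, 8.77% (KO) and 17.9% (control) in that of the chimaeras, where Ccnd3 was above the mean of the clusters (396 CPM, log2 0.24), and 0.630% to 3.82% in dark zone or cycling-like clusters. The exact 95% intervals of the share (Clopper-Pearson, counting error only) were 63.3% to 84.0% for Day14 replicate 1 and 55.5% to 65.7% for Day7 replicate 2 in the plasma-like clusters.

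Cdk4 was highest in the MYC-high selected-like cluster of every table, with means of 131 CPM at Day14, 365 CPM at Day7 and 389 CPM in the chimaeras. At Day14 the range of cluster 8 overlapped it (94.6 to 137 CPM). Cdk6 was highest there too at Day14 (148 CPM) and Day7 (66.8 CPM), and in the chimaeras shared the top with a histone-led dark zone or cycling-like cluster (31.6 CPM against 34.7 CPM, overlapping). Cdk6 was lowest in the plasma-like clusters of all 3 tables, at 28.5 CPM in Day14 cluster 9 (134 CPM in cluster 8), 16.9 CPM at Day7 and 6.78 CPM in the chimaeras.

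The inhibitors and Rb1 marked other clusters. Cdkn1b was highest in the memory precursor-like clusters of Day14 (58.1 CPM) and the chimaeras (31.0 CPM, overlapping the plasma-like 23.8 CPM) and in the plasma-like cluster of Day7 (33.3 CPM), and it was lowest or next to lowest in MYC-high selected-like clusters (10.2, 3.98 and 8.68 CPM). Cdkn2c was highest in 1 dark zone or cycling-like cluster of Day7 (cluster 1, 92.8 and 89.2 CPM in its libraries) and 1 of the chimaeras (cluster 2, 66.1 CPM). The other such cluster had 55.3 CPM at Day7 and 33.9 CPM in the chimaeras. At Day14 a dark zone or cycling-like cluster (31.6 CPM) overlapped cluster 8 (32.9 CPM). Rb1 was highest in the memory precursor-like cluster of Day14 (33.9 CPM) and in the plasma-like clusters of Day7 (21.8 CPM) and the chimaeras (8.79 CPM). Cdkn1a stayed at or below 13.2 CPM in every cluster, with the highest mean in Day14 cluster 7, which came from replicate 2 alone. With cells thinned to 1000 UMIs each, 15 of the 24 top clusters stayed the same, among them those of Ccnd2, Cdk6, Cdkn1b and Cdkn2c in all 3 tables, while those of Rb1 and Cdkn1a changed in all 3.

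**Figure D4:**
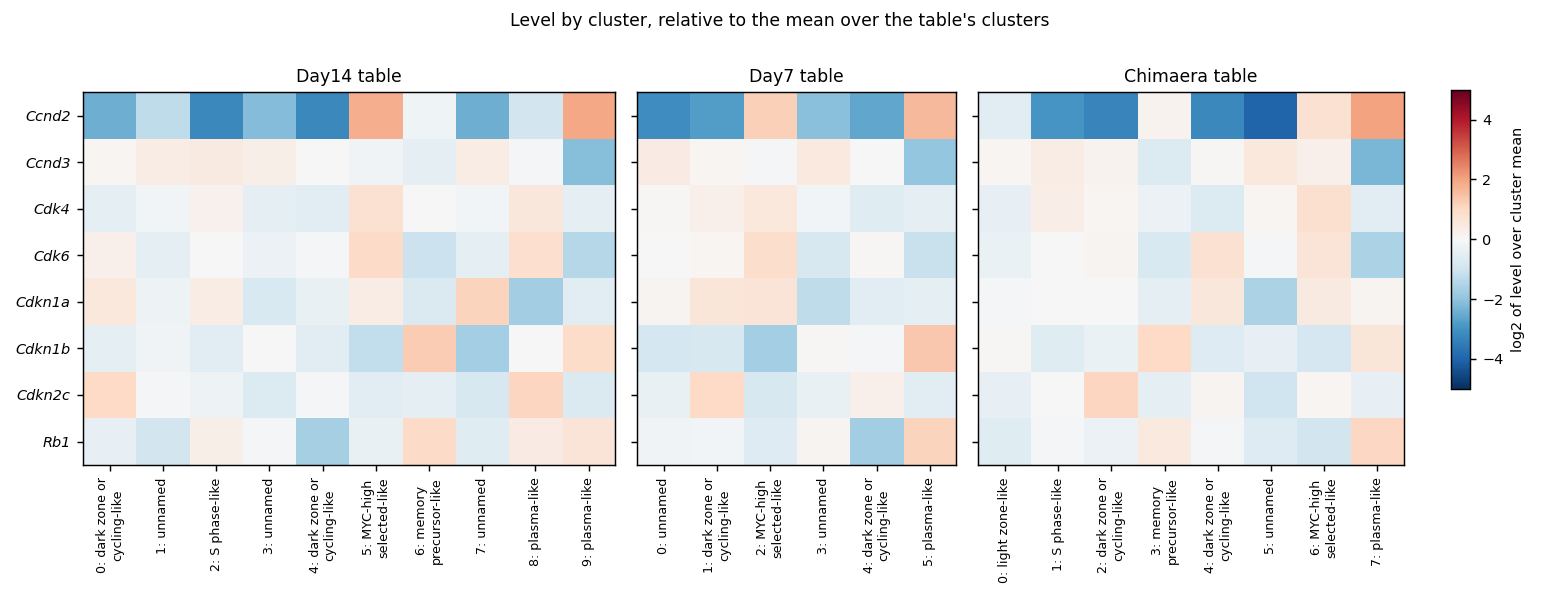
Log2 of each gene's mean level in a cluster over its mean across the clusters of that table (colour; red above, blue below) for the Day14, Day7 and Chimaera tables, in clusters with at least 50 cells in a library. Ccnd2 runs from -4.01 to 2.02 in the chimaeras and is above its table mean in the MYC-high selected-like columns and in every plasma-like column but Day14 cluster 8 (-0.91). Ccnd3 is lowest in those other plasma-like columns, and stands at 0.24 in the MYC-high selected-like column of the chimaeras.

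Genes of most like pattern over 46 library-by-cluster groups, each centred in its library, were found among 5360 genes. For Ccnd2 they were Casp4 (Pearson r 0.88), Rilpl2 (0.88), Srm (0.84), Ppa1 (0.82) and Mtdh (0.82). For Ccnd3 they were Rbm38 (0.94), Smarce1 (0.93), Spib (0.93), Hdac1 (0.92) and Ppp4r2 (0.91), and Ccnd2 and Ccnd3 themselves had r = -0.71. Cdkn2c was most like Aurkb, a mitotic kinase gene (0.87), H2afx (0.80), Ndc1 (0.79), Ect2 (0.77) and Ccnf (0.77), and Cdkn1b like Cmah (0.87), Mbnl2 (0.87), Cytip (0.86), Txnip (0.83) and Zfp36 (0.83). Cdkn1a gave at most 0.73, with Dnajc21, Mrps7 (0.73), Cep162 (0.71), Pop5 (0.70) and Mpp6 (0.68). The groups share libraries and depth, so these values are descriptions.

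In the chimaeras, which asked what loss of the IL-4 receptor from Ccl19-lineage stromal cells does to germinal centre B cells, Ccnd2 was lower and Ccnd3 higher in the KO. Each group is 1 library, so no test is possible and intervals cover counting error only. Ccnd2 had 14.3 CPM in the KO and 30.8 CPM in the control (log2 -1.11, interval -1.23 to -0.99). Ccnd3 had 399 CPM in the KO and 320 CPM in the control (log2 0.32, interval 0.29 to 0.35). A gene counted as changed in size with at least 20 CPM in either library, a log2 ratio of at least 0.5 in size, an interval excluding 0 and a ratio exceeding the one between the Day14 replicates. Of the 8 members 5 reached 20 CPM, and Ccnd2 was the 1 of them past this rule, where 72 of 5065 genes at that level were (1.42%, with 0.691% higher and 0.731% lower). Between replicate libraries Ccnd2 differed by 0.77 at Day7 and 0.19 at Day14 (log2 of replicate 2 over 1), both smaller than the KO over control ratio over all cells. With equal cluster shares in both libraries Ccnd2 stood at -0.75, no larger in size than the Day7 replicate difference.

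Cdk4 had 243 CPM in the KO and 221 CPM in the control (log2 0.13, interval 0.10 to 0.17), and Cdk6 had 19.0 CPM in the KO and 21.2 CPM in the control (-0.16, -0.27 to -0.04). The intervals of Cdkn1a, Cdkn1b, Cdkn2c and Rb1 included 0, with log2 ratios of -0.26, -0.10, 0.07 and -0.02. Of the pathway lists no gene was past the rule. Among list genes with at least 5 CPM, the largest ratio of each list was that of Cdkn2a (0.50, at 7.02 CPM in the KO and 4.97 CPM in the control), Ccne1 (0.32), E2f4 (0.27), Klf2 (-0.38) and Trp53inp1 (-0.36), named after the values were seen. Klf2 differed more between the Day14 replicates (log2 1.01, replicate 1 over 2) than between KO and control, and the others differed less.

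Within clusters, Ccnd2 was lower in the KO in 7 of 8, with the interval below 0 in 5. In the memory precursor-like cluster 3 it had 19.0 CPM in 945 KO cells and 60.1 CPM in 1304 control cells (log2 -1.66, interval -1.91 to -1.42). In the MYC-high selected-like cluster 6 it had 42.6 CPM in 394 KO cells and 76.2 CPM in 453 control cells (-0.84, -1.09 to -0.60), but -0.45 with cells thinned to equal UMIs. The light zone-like cluster 0 had 20.3 CPM in the KO and 28.3 CPM in the control (-0.48). The plasma-like cluster 7 alone went the other way, with 150 CPM in the KO and 131 CPM in the control (0.20, -0.05 to 0.44), but it stood at -0.045 with thinned cells. Clusters 3 and 6 were past the size rule for Ccnd2, 2 of the 33 gene-by-cluster pairs of the members that reached 20 CPM (6.06%, of 64 pairs in all), where 3.20% of 40046 such pairs of all genes were. Between the Day7 replicates Ccnd2 differed by up to 1.94 in a cluster (cluster 1, 9.20 CPM in replicate 2 and 2.40 CPM in replicate 1), but by 0.11 in the MYC-high selected-like cluster.

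Ccnd3 was higher in the KO in all 8 clusters, from 0.16 to 0.40, with the interval above 0 in 7 of them, and in every case below the size rule. Cdk4 was higher in all 8 (0.05 to 0.22), with the interval above 0 in 5, but it turned to -0.049, -0.026 and -0.113 in clusters 1, 2 and 5 with thinned cells and to -0.002 in cluster 7 with TMM scaling. Between the Day7 replicates Ccnd3 differed by up to 0.29 in a cluster, and 5 of the 8 KO over control ratios were smaller than that. Cdk4 had 237 and 287 CPM in LZ cells of the Day7 replicates, and 264 and 279 CPM in their DZ cells. All 8 clusters come from the same KO and control libraries, so counts of clusters, here and for Ccnd2, are not repeated evidence. The share of all genes with the same sign in all 8 was not counted. By zone, Ccnd2 had 31.4 CPM in KO LZ cells and 64.3 CPM in control LZ cells (-1.04), and 6.14 CPM in KO DZ cells and 11.4 CPM in control DZ cells (-0.90). Ccnd3 had 333 CPM in KO LZ cells and 236 CPM in control LZ cells (0.50), and 429 CPM in KO DZ cells and 369 CPM in control DZ cells (0.22). By phase Ccnd2 stood at -1.15 in G1, -1.07 in S and -0.56 in G2M. Ccnd2 made up 3.45% of Ccnd2 and Ccnd3 UMIs in the KO (exact interval 3.23% to 3.69%) and 8.77% in the control (8.40% to 9.15%).

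**Figure D5:**
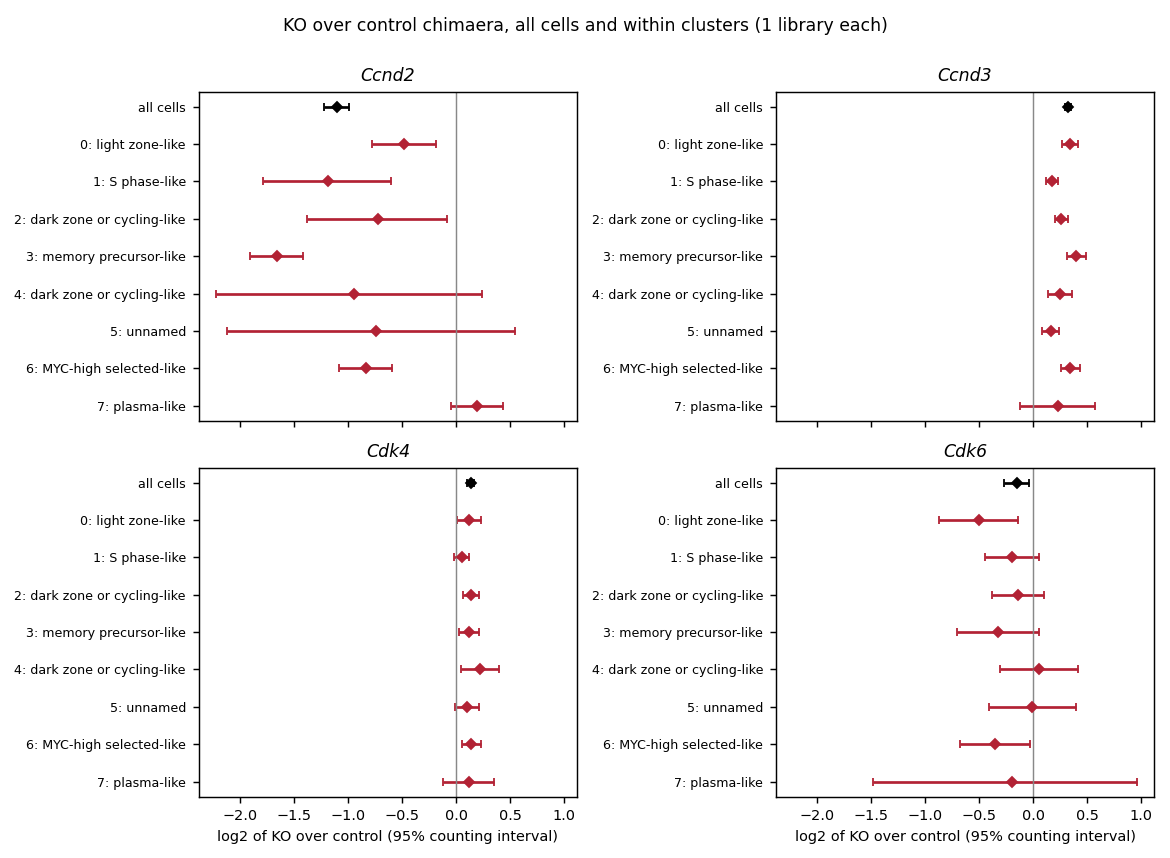
Log2 ratio of KO over control level (horizontal axis) with 95% counting intervals for Ccnd2, Ccnd3, Cdk4 and Cdk6, in all cells and in each of the 8 chimaera clusters, 1 library per group. Ccnd2 lies at -1.66 in the memory precursor-like cluster and 0.20 in the plasma-like cluster, and Ccnd3 lies between 0.16 and 0.40 throughout.

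The 3 chimaera clusters richest in Ccnd2 all held a smaller share of KO cells than of control cells. The MYC-high selected-like cluster was nearly equal, with 5.39% of KO cells and 5.64% of control cells. The plasma-like cluster held 1.86% of KO cells and 3.58% of control cells, and the memory precursor-like cluster 12.9% of KO cells and 16.2% of control cells. The 9 plasma markers summed to 2447 CPM in the KO and 3559 CPM in the control. Ccnd2 stood at -1.20 without the plasma-like cluster. Plasma marker sums were 833 and 806 CPM at Day14 and 3651 and 3644 CPM at Day7, and leaving out the plasma-like clusters kept 6 of 8 members past the test between time points and 5 of 8 between zones, with Ccnd2 at log2 2.79 for LZ over DZ. In sums over a library, fewer cells of a type and less RNA per cell cannot be told apart.

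On GRCm38, Ccnd2 lies on chromosome 6 (127125162 to 127152193, minus strand) and overlaps the antisense genes Gm43126 and 9330179D12Rik, and Ccnd3 lies on chromosome 17 (47505051 to 47599691, plus strand), overlaps Bysl on the other strand and has a pseudogene copy, Ccnd3-ps. Cdk4 overlaps Tspan31, Cdk6 overlaps antisense genes, Rb1 overlaps the protein-coding Rcbtb2 and Lpar6 as well as Gm17233 and Mir687, Cdkn1a overlaps AC167363.2, and Cdkn1b and Cdkn2c overlap no annotated gene. The strand setting of the counting is not given in the sources used here, so the counts of these overlapping genes are uncertain.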

How the data were processed

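The members and gene lists were chosen with earlier results of these data known. The authors deposited UMI counts per gene and cell, with cluster, zone (Position), phase and library for each cell. Per the submitters' processing notes, Cell Ranger, Seurat and the mm10 build were used; versions and settings are not given in the sources used here. The 3 tables list 31053 (Day14), 27998 (Day7, with no immunoglobulin genes) and 15763 (Chimaera) symbols, and their cells hold 500 to 9998, 7290 to 49966 and 554 to 19996 UMIs. The 1 column of receptor sequencing barcodes was not used.

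All deposited cells were kept and no doublet caller was run; an alternative left out the 5% of cells with the highest UMI counts. Counts were summed per library and zone, phase or cluster (at least 50 cells). Tests used edgeR 4.0.16 (R 4.3.3): TMM, filterByExpr and the quasi-likelihood test, with the library as a block for zones and phases, without immunoglobulin genes, and a Benjamini-Hochberg adjusted p under 0.05 over all genes tested. The procedure was checked on simulated counts. SE is the log2 change divided by the root of F, and 95% intervals of log2 changes are 1.96 SE to either side. Ratios of 2 libraries carry exact conditional binomial intervals. Clusters were named "-like" from marker lists (a median log2 ratio of 0.5 or more, 3 or more raised markers), unless another class held more of the 10 genes of largest fold. DESeq2 1.42.0 was an alternative. The named genes were the 8 members; in each list and comparison, the largest change in each direction and the highest mean CPM; and for 5 members the 5 genes of most like pattern by Pearson r of log2(CPM + 1), at a mean of at least 20 CPM. Other named genes were chosen after their values were seen. Sequences come from RefSeq (GRCm38.p6).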

Additional observations from a re-analysis of the deposited data

Results flagged for a closer look

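The light zone over dark zone difference of Cdk4 differed between time points by a test of the difference itself, at log2 0.30 (0.303, SE 0.08, edgeR adjusted p = 0.0488), higher at Day14. The call was lost in 6 alternatives, among them DESeq2, thinned cells and leaving out the plasma-like clusters or either Day14 library. The LZ over DZ log2 of Cdk4 was above 0 in both Day14 libraries (0.28 and 0.30), against -0.15 and 0.04 in the Day7 libraries. In the chimaeras, also of day 14, it was -0.10 in the KO and -0.07 in the control, and within G1 cells it was above 0 in 6 of 6 libraries. Time point, gate and table cannot be told apart here.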

How the results depend on the processing

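Over the settings tried for the tested comparisons, 638 member results kept direction and call, 33 lost the call, 16 gained one and 32 changed sign; where no cause is named, the cause was not tested. Library totals without scaling factors, and leaving out plasma-like clusters, were chosen after seeing the data. Library totals moved the median of all genes from 0.038 to 0.226 for Day14 over Day7, so changes there are relative to that shift. Ccnd2 at Day14 over Day7 became 0.04 with library totals, 0.02 in DZ cells and lay between -0.53 and 0.33 with 1 library left out. With the replicate block, 7 members passed there (6 without it) and 8401 genes (8145 without it). Same-numbered libraries correlated at r = 0.176 over 11995 genes, with 2 pairs, and share only a number. Leaving out 1 library gave 5 to 8 members for Day14 over Day7, 4 to 5 for zones, 4 to 5 for zones within G1, 7 to 8 for S, 6 to 7 for G2M and 0 to 2 for the difference of zone effects. For LZ over DZ, 3 members passed in the Day7 table alone, and Cdk4 stood at -0.01 with other size factors, no filter, DESeq2 and thinned cells, at -0.12 in the Day7 table, at -0.05 in the chimaeras and between -0.03 and 0.05 with 1 library left out, while Cdk6 was 0.10 in the Day7 table. Within G1, DESeq2 and the Day7 table gave 3 members each. There Rb1 was -0.06 with thinned cells, Cdkn1b -0.0049 in the Day7 table, Cdkn1a 0.39 in the Day14 table, Cdk6 -0.12 and Cdkn2c -0.09 in the chimaeras, and with 1 library left out Cdkn1a lay between -0.30 and 0.03 and Cdkn2c between -0.01 and 0.18. For G2M over G1, Ccnd3 was -0.03 with library totals, -0.15 with thinned cells, -0.01 without plasma-like clusters, between -0.01 and 0.08 with 1 library left out, and -0.13 in the Day14 table, where Cdk4 was -0.21. For the difference of zone effects, 0 members passed with DESeq2, thinned cells, without the cells of highest UMIs or without plasma-like clusters. With thinned cells Ccnd2 was 0.31, Cdkn1b -0.02 and Rb1 0.21, and Cdkn1a lay between -0.20 and 0.35 with 1 library left out. With a log2 ratio of at least 1, 1 gene-by-cluster pair was past the size rule in the KO, and with thinned cells 15 of 24 top clusters stayed. Thinning, which leaves fewer UMIs, lowered the genes called to 3934 (from 6803) for zones, 1509 (4137) within G1, 4229 (7234) for S and 4061 (6876) for G2M, and the Day7 table alone gave 4344 for zones and 4546 for G2M. For the difference of zone effects (273 genes) the count was 491 without a filter, 28 with DESeq2, 62 thinned, 116 without plasma-like clusters and 26 to 1239 with 1 library left out. Depth limits Cdkn1a most, at 1.83 to 7.48 CPM.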
